A study of Mus musculus
Rattus norvegicus and Rattus norvegicus and Mus musculus with 18 samples.

Results

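The CC chemokines Ccl2, Ccl3, Ccl4, Ccl5, Ccl7, Ccl19, Ccl20 and Ccl21 were followed in a xenograft in which the tumor is mouse and the host is rat. The 8 genes were picked by symbol. Mouse transcripts of these genes stand for the 4T1 tumor cells and rat transcripts for the host. Of the 8, the mouse table held 3 (Ccl2, Ccl5 and Ccl7) among 17672 genes and the rat table held 7 (all but Ccl20) among 14876 genes, 10 of the 32548 rows in all. Ccl20 had no row in either table, and Ccl2, Ccl5 and Ccl7 had a row in both.

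PolyA RNA-seq libraries came from the necrotic core of the tumor (5 libraries), from the lung (5) and from the non-necrotic rim of the tumor (5), with normal mammary gland of rats without a xenograft (2) and a pellet of cultured 4T1 cells (1) as single-species references. SRG rats carried the tumors in a mammary fat pad, where they had grown from 4T1, an established mouse line of mammary carcinoma. Tissue was taken at 27 days, and no group was treated. Core and rim came from the same 5 rats, Rat3867, Rat3869, Rat3875, Rat3876 and Rat3877. The lungs came from Rat3789 and from all of these but Rat3867. The labels give the genotype as wildtype throughout. SRG rats are known as an immunodeficient strain with disrupted Rag2 and Il2rg, and Cd3d, Cd3e and Cd3g, which encode the T cell receptor complex, had no row in the rat table. Of 14 markers of T, B and NK cells 5 did have a row, summing to 95.4 to 398 CPM in the tumor and lung libraries. The age of the rats is not given, the tumor cells are 1 line, and the pellet has no replicate. In such bulk tissue, fewer cells of a type and less RNA per cell cannot be told apart.

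CC chemokines are small secreted proteins that attract leukocytes through receptors of the Ccr family. Ccl2 and Ccl7 draw monocytes through Ccr2. Ccl3, Ccl4 and Ccl5 attract monocytes, macrophages and T cells, Ccl3 and Ccl5 through Ccr1 among others. Ccl19 and Ccl21 guide dendritic cells and lymphocytes through Ccr7, Ccl21 being made by lymphatic endothelium and lymphoid stroma, and Ccl20 acts through Ccr6.

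The family is named for a pair of adjacent cysteines near the start of the mature protein. The mouse coding sequences around this pair are shown for 7 of the 8 members because they are what the members share and how they differ beside it. Sequences are from the GENCODE transcripts of the build GRCm38 and run 5′ to 3′ on the coding strand, with the adjacent cysteine codons in capitals.
Ccl2: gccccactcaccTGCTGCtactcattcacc
Ccl7: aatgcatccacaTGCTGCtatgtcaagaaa
Ccl4: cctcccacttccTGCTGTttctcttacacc
Ccl5: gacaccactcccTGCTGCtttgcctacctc
Ccl19: gatgcggaagacTGCTGCctgtctgtgacc
Ccl20: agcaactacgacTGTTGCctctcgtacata
Ccl21a: gggggtcaggacTGCTGCcttaagtacagc

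In the mouse, 5 of the 8 lie on chromosome 11. Ccl2 (ENSMUSG00000035385, chr11:82035571-82037453, plus strand) and Ccl7 (ENSMUSG00000035373, chr11:82045712-82047525, plus strand) are 8258 bases apart. Ccl5 (ENSMUSG00000035042, chr11:83525778-83530518, minus strand), Ccl3 and Ccl4 form another group there, with 13228 bases between Ccl3 and Ccl4. Ccl19 and Ccl21a lie 16282 bases apart on chromosome 4. Mouse Ccl21a has a copy, Ccl21b, whose coding sequence matches it at 400 of 402 bases (99.5%), so reads of these copies cannot be told apart. Mouse Ccl2 overlaps Gm17268 on the opposite strand. How strand was treated in counting is not stated, so reads of the overlap cannot be told apart either.

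The tumor and lung libraries held 15346400 to 26669410 reads on mouse genes and 3146720 to 10015352 on rat genes. In the single-species references, 1.78% and 1.96% of gland reads were assigned to mouse genes and 0.718% of pellet reads to rat genes. The library labelled lung of Rat3789 went against its label. Its 10 rat alveolar and airway markers summed to 88.0 CPM (counts scaled to the library total of the species), against 10482 to 18455 CPM in the other 4 lungs, and Sftpc, the alveolar surfactant protein C gene, stood at 1.88 CPM. Its 8 fibroblast markers summed to 26668 CPM, against 2370 to 6640 CPM in the other lungs, and the fat cell gene Adipoq stood at 61.7 CPM. Each tested lung result of a member is therefore given with and without this library. Among the rims, those of Rat3876 and Rat3877 held more of the epithelial keratin Krt8 (54.0 and 58.1 CPM) than the other 3 (2.72 to 6.04 CPM), and more Adipoq (117 and 32.6 CPM, against 2.34 to 5.94 CPM).

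Host CC chemokines fell into 3 patterns. Ccl3, Ccl4 and Ccl2 were higher in the core than in the rim, by 10.2-fold, 3.80-fold and 2.18-fold. Ccl21 was lower in the core, by -6.66 on the log2 scale, where its reads did not exceed those expected from a library without rat cells. Ccl7 did not pass the test between core and rim and was 2.73-fold lower in the lung than in the rim. Between core and rim, 4 of the 5 host members with enough reads for a test were called (3 higher, 1 lower), where 37.6% of all 13559 rat genes tested were (17.5% higher, 20.1% lower). The median of the 5 log2 differences was 1.12, and that of all tested genes was -0.00. Ccl21 met the filter for a test (at least 1 CPM in at least 5 of 10 libraries) through its rims, at 7.03 to 366 CPM. Its cores held 0.159 to 1.39 CPM. Ccl5 and Ccl19 did not meet this filter. Calls are limma adjusted p under 0.05 over all genes of a species. All values below are CPM on the authors' scale, and within each group they follow the rat numbers (Rat3867, Rat3869, Rat3875, Rat3876 and Rat3877 in core and rim, with Rat3789 in place of Rat3867 in lung).

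**Figure D1:**
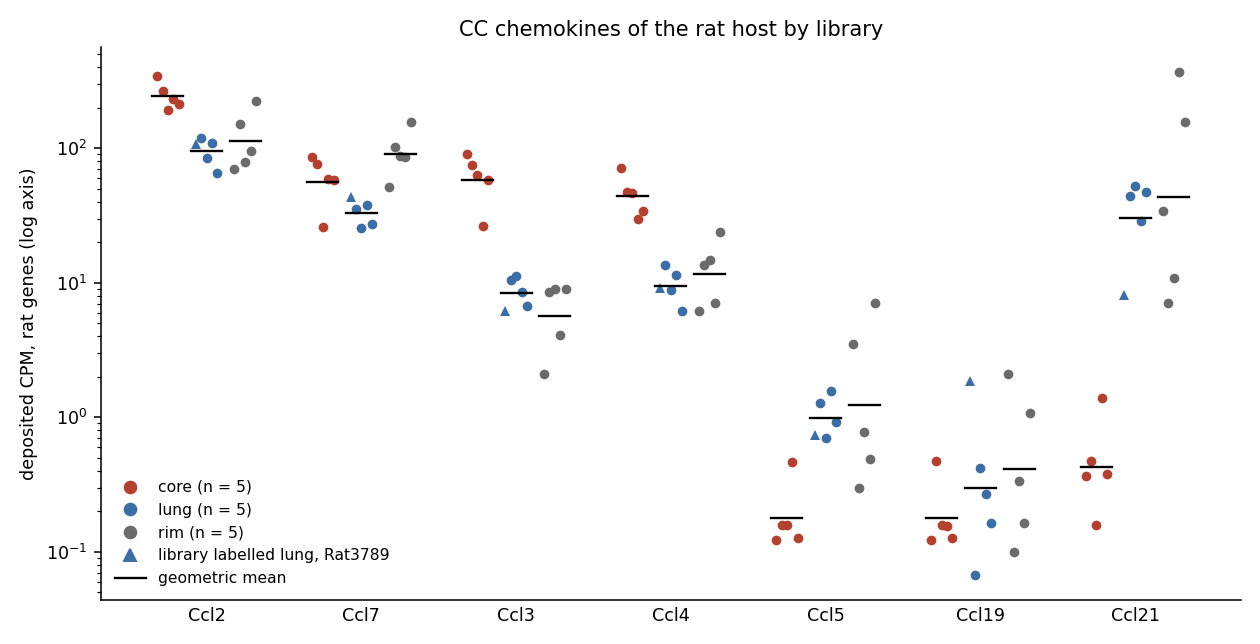
CC chemokines of the rat host in each library (log axis, deposited CPM), with core left, lung in the middle and rim right for each gene, n = 5 each; bars are geometric means and the triangle is the library labelled lung of Rat3789. Ccl3 and Ccl4 of all 5 cores lie above every lung and rim, while Ccl21 of all 5 cores lies below every lung and rim.

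Ccl2, the monocyte attractant, was at 344, 265, 193, 234 and 215 CPM in the cores and at 108, 120, 84.8, 109 and 65.5 CPM in the lungs. The rims held 69.8, 152, 79.1, 94.8 and 227 CPM. All cores were above all lungs, and the rim of Rat3877 reached into the range of the cores. Rat Ccl2 was higher in the core than in the rim by 1.12 ± 0.28 on the log2 scale (SE, limma adjusted p = 0.0136) and higher in 4 of 5 rats. In the lung it was lower than in the core by a log2 difference of -1.36 ± 0.19 (adjusted p = 0.000522; -1.41 and 0.000258 without the library of Rat3789). Lung and rim were not told apart, with a 95% interval of -0.92 to 0.44 (adjusted p = 0.625; 0.571 without that library).

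Ccl7, whose gene neighbours Ccl2 in the mouse and whose protein shares its receptor, had another order of tissues. The cores held 85.6, 76.7, 25.9, 58.9 and 57.9 CPM, the lungs 43.7, 35.2, 25.7, 38.0 and 27.2 CPM, and the rims 51.2, 101, 88.0, 86.4 and 157 CPM. All lungs lay below all rims, whereas the ranges of cores and rims overlapped. Rat Ccl7 fell in the lung relative to the rim (-1.45 ± 0.26, adjusted p = 0.00334; -1.55 and 0.00137 without Rat3789). Beside it, 8 of 8 rat fibroblast markers fell in the lung against the rim (summed level 2370 to 26668 CPM in lungs and 32904 to 61481 CPM in rims), with and without Rat3789, and 9 of 9 alveolar and airway markers rose; their part in the Ccl7 result was not tested. With all lungs, 11.6% of all tested rat genes fell there and 10.5% rose. The difference of Ccl7 between core and rim was -0.68 ± 0.31 (adjusted p = 0.122), lower in 4 of 5 rats. Without Rat3867, the one rat with the higher core, it was -1.04 (adjusted p = 0.0141). Over all alternatives it ran from -1.04 to -0.41, with adjusted p of 0.0141 to 0.345. Between lung and core the difference was -0.77 (adjusted p = 0.0648), and it was called without Rat3789 (-0.86, adjusted p = 0.0404), without Rat3875 (-0.95, 0.0104) and with the rat as a block (-0.71, 0.0235). All alternatives there ran from -0.95 to -0.62, with adjusted p of 0.0104 to 0.200.

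Ccl3, a macrophage inflammatory protein, was high in every core. It was at 90.7, 74.8, 62.8, 26.4 and 58.4 CPM in the cores and at 6.20, 10.6, 11.3, 8.55 and 6.76 CPM in the lungs. The rims held 2.11, 8.61, 9.01, 4.08 and 9.05 CPM. The lowest core was above the highest lung and the highest rim. The log2 difference was 3.35 ± 0.38 between core and rim (adjusted p = 0.000412, higher in 5 of 5 rats) and -2.78 ± 0.31 between lung and core (adjusted p = 0.000154; -2.67 and 6.94e-05 without Rat3789). Lung and rim overlapped (0.56, interval -0.34 to 1.47, adjusted p = 0.365; 0.67 and 0.279 without Rat3789).

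Ccl4, the other macrophage inflammatory protein, was at 71.8, 47.4, 46.6, 29.8 and 34.4 CPM in the cores and at 9.16, 13.5, 8.77, 11.5 and 6.22 CPM in the lungs. Rims held 6.14, 13.6, 14.8, 7.02 and 23.8 CPM. Again no core overlapped with a lung or a rim. It was higher in the core than in the rim by 1.92 ± 0.35 (adjusted p = 0.00372, 5 of 5 rats) and lower in the lung than in the core (-2.21 ± 0.26, adjusted p = 0.000212; -2.19 and 0.000124 without Rat3789). Between lung and rim it was not called (-0.28, interval -1.09 to 0.53, adjusted p = 0.627; 0.663 without Rat3789).

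Between lung and core, 4 of the 5 host members were called (1 higher, 3 lower), against 32.8% of all tested rat genes (17.9% higher, 14.9% lower); the members' median log2 difference was -1.36, and that of all tested genes 0.03. Between lung and rim 1 of 5 was called, Ccl7, against 22.1% (10.5% higher, 11.6% lower), with medians of -0.28 and 0.02. These comparisons share libraries with each other and with that of core and rim. Between lung and core, Ccl21 met the filter through its lungs, at 8.13 to 52.8 CPM.

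Rat Ccl5, which attracts T cells and monocytes, was near the limit of detection and below the filter for a test. The cores held 0, 0, 0, 1 and 0 reads, the lungs 6, 9, 7, 14 and 8, and the rims 17, 1, 3, 4 and 36. No core overlapped with a lung, and the rims of Rat3867 and Rat3877 stood above the other 3. With no filter on low values, limma gave log2 differences of -2.79 between core and rim (adjusted p = 0.0402), 2.47 between lung and core (adjusted p = 0.00492) and -0.32 between lung and rim (adjusted p = 0.818). Cores had the fewest rat reads of the 3 tissues (3146720 to 4221679, against 6976025 to 10015352 in lungs and 4900651 to 9183248 in rims), and the values with 0.5 read added understate differences at such counts.

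Rat Ccl21, the lymphatic and lymphoid stromal ligand of Ccr7, was lowest in the cores, where Ccl3 was highest. The cores held 1, 1, 0, 4 and 1 reads (0.364, 0.473, 0.159, 1.39 and 0.378 CPM). Lungs held 71, 327, 568, 266 and 440 reads (8.13, 44.0, 52.8, 28.7 and 47.7 CPM), and rims 169, 35, 48, 3365 and 812 reads (34.1, 7.03, 10.8, 366 and 158 CPM). Every core was below every lung and rim, and the rims spread widely, with the highest values in the 2 rims that also held the most Krt8 and Adipoq. The log2 difference was -6.66 ± 0.63 between core and rim (adjusted p = 0.000188, lower in 5 of 5 rats), a value that depends on the 0.5 read added to the few core reads and is no exact fold. The other 3 rims, of Rat3867, Rat3869 and Rat3875, also lay above all cores. In the lung it was higher than in the core by 6.15 ± 0.63 (adjusted p = 0.000100; 6.62 and 4.54e-06 without Rat3789, which held the lowest value of the lungs). Lung and rim were not told apart (-0.51, interval -2.80 to 1.79, adjusted p = 0.768; -0.03 and 0.987 without Rat3789). Without Rat3876, Ccl21 fell under the filter between core and rim and between lung and core, and no value could be given.

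The core reads of Ccl21 were no more than the pellet gave. The pellet, which holds no rat cells, had 8 reads on rat Ccl21 and 0 on the mouse copies Ccl21a and Ccl21b. At that rate per mouse read, 5.45 to 6.47 rat Ccl21 reads would be expected in the cores, which held 0 to 4. The gland libraries held 20 and 1241 Ccl21 reads, or 0.967 and 58.0 RPM (reads scaled as CPM to the library total of the species), so the normal glands themselves lay far apart.

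Lymphatic endothelial markers, like Ccl21, were lowest in the cores. Their sum over 6 genes was 66.7 to 95.2 CPM in cores, 605 to 926 CPM in lungs and 359 to 937 CPM in rims. Between core and rim 5 of 6 fell and 0 rose, where 20.1% of all tested rat genes fell and 17.5% rose. Among those that fell were the hyaluronan receptor Lyve1 (-4.06 ± 0.47, adjusted p = 0.0004) and the secreted protein gene Reln (-5.09 ± 0.53, adjusted p = 0.0003). Outside the cores the match was partial. The rims of Rat3876 and Rat3877 were the highest rims for both Lyve1 and Ccl21. Among lungs, Lyve1 was highest in the library of Rat3789 (823 CPM), where Ccl21 was lowest (8.13 CPM). The part of lymphatic markers in the Ccl21 result was not tested.

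Rat Ccl19, the other ligand of Ccr7, was too low to be tested. It had 0, 1, 0, 0 and 0 reads in the cores, 16, 0, 4, 2 and 1 in the lungs, and 10, 0, 1, 1 and 5 in the rims. All groups overlapped, and with no filter limma called none of its 3 differences (adjusted p = 0.341 between core and rim, 0.788 between lung and rim, 0.537 between lung and core).

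In the normal gland, rat Ccl2 had 42 and 87 reads (2.03 and 4.07 RPM) in the 2 libraries, and Ccl7 37 and 79 (1.79 and 3.69 RPM). Ccl3 had 1 and 4 reads, Ccl4 0 and 7, and Ccl5 and Ccl19 0 in each, which allows up to 0.145 and 0.140 RPM (3 reads of each total, counting error only). In the rims, recovered reads gave 66.7 to 227 RPM for Ccl2 and 49.0 to 157 RPM for Ccl7. The glands come from a table of their own, so these levels are set side by side without a test.

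Among the mouse reads that stand for tumor cells, Ccl2 was higher in the core than in the rim by 11.7-fold. It was at 11.2, 12.1, 4.07, 5.37 and 5.80 CPM in the cores (232, 277, 79, 108 and 122 reads). In the lungs it was at 2.04, 3.85, 3.89, 1.55 and 4.96 CPM (51, 84, 108, 27 and 80 reads), and in the rims at 0.0748, 0.854, 1.31, 0.538 and 1.72 CPM (1, 18, 27, 9 and 34 reads). All cores were above all rims, and the lungs lay between them, overlapping with both. The difference between core and rim was 3.55 ± 0.72 (adjusted p = 0.0114, higher in 5 of 5 rats). Of the 2 mouse members tested, 1 was called, against 19.8% of all 13070 mouse genes tested (10.1% higher, 9.63% lower); the medians were 1.25 for the members and 0.01 for all genes. Mouse Ccl2 met the filter for a test through its cores, as all rims but those of Rat3875 and Rat3877 lay under 1 CPM.

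**Figure D2:**
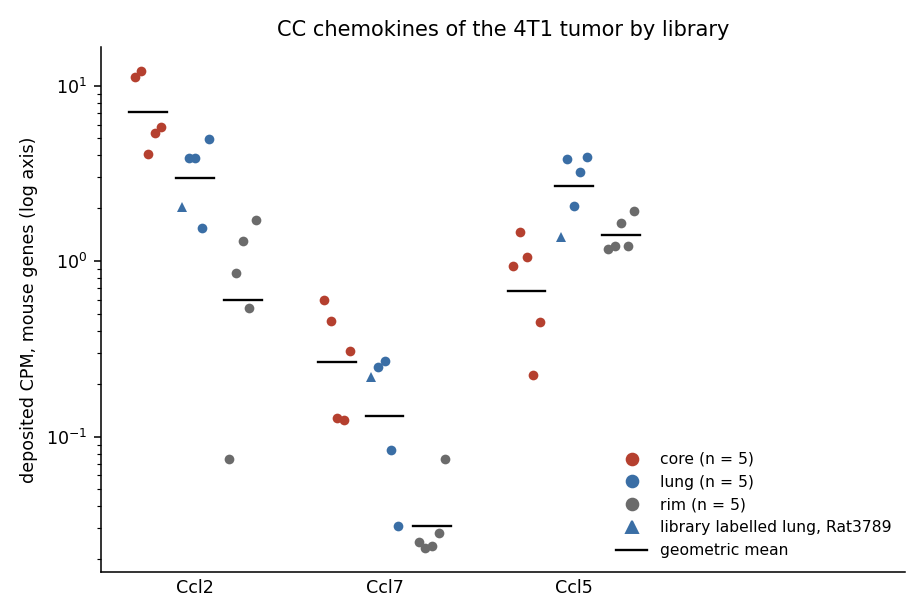
CC chemokines of the mouse tumor cells in each library (log axis, deposited CPM), with core left, lung in the middle and rim right for each gene, n = 5 each; bars are geometric means and the triangle is the library labelled lung of Rat3789. Mouse Ccl2 of all 5 cores lies above all 5 rims, and Ccl5 is highest in lungs.

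Mouse Ccl2 was also higher in the lung than in the rim (2.31 ± 0.73, adjusted p = 0.0430; 2.45 and 0.0473 without Rat3789) and lower in the lung than in the core (-1.24 ± 0.37, adjusted p = 0.0196; -1.10 and 0.0391 without Rat3789). The difference between lung and rim was not called without Rat3869 (adjusted p = 0.117), Rat3875 (0.0835), Rat3876 (0.0873) or Rat3877 (0.0531). That between lung and core was not called without Rat3867 (0.0549) or Rat3876 (0.0522). Between lung and rim 1 of 2 mouse members was called, against 20.1% of genes (9.91% higher, 10.2% lower), and between lung and core 2 of 2 were, against 36.3% (17.1% higher, 19.1% lower); the members' median log2 differences were 1.62 and 0.37, and those of all tested genes 0.01 and -0.02. The lungs alone were enough for Ccl2 to meet the filter against the rim, and for Ccl5 against the core.

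The tumor level of Ccl2 has to be read beside the host's, since some rat reads are assigned to mouse genes. In gland library 1, 6 mouse and 42 rat Ccl2 reads were counted (14.3 mouse reads per 100 rat reads), and in gland library 2, 0 and 87; over both the rate was 4.65 per 100. The cores held 13.0 to 32.9 mouse Ccl2 reads per 100 rat Ccl2 reads, the lungs 2.66 to 13.2 and the rims 0.289 to 7.61. The rim of Rat3867 had 1 mouse read beside 346 rat reads, where the rate of gland library 1 would give 49.4.

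With the reads expected at the rate of both glands subtracted, the difference between core and rim was 6.75 (adjusted p = 0.00282). That between lung and rim was 3.83 (adjusted p = 0.0620) and that between lung and core -2.92 (adjusted p = 0.0501). This rate left no read in the rims of Rat3867, Rat3869, Rat3876 and Rat3877. These held 1, 18, 9 and 34 mouse reads, where 16.1, 35.6, 40.5 and 54.1 were expected. The rim of Rat3875 kept reads (27 against 16.5) and the lung of Rat3876 did not (27 against 47.2). These differences therefore depend on the fraction of a read added to each count and are no exact folds. The 6.75 is thus no sign of a stronger effect. At the rate of gland library 1, chosen after seeing the data, none was called: 2.96 between core and rim (adjusted p = 0.143), -0.09 between lung and rim (0.932) and -3.06 between lung and core (0.111). That rate left no read in any lung or rim, nor in the cores of Rat3875 (79 against 86.9) and Rat3876 (108 against 108.1). The core of Rat3877 held 122 against 121.6, so these differences are no exact folds either. The part of host reads in the mouse Ccl2 values of the cores was not separated further. In the 4T1 pellet, mouse Ccl2 had 178 reads, or 6.04 RPM (95% exact Poisson interval 5.19 to 7.001). This level is inside the range of the cores (3.81 to 11.6 RPM) and above that of all lungs (1.57 to 5.21) and all rims (0.0495 to 1.68).

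**Figure D3:**
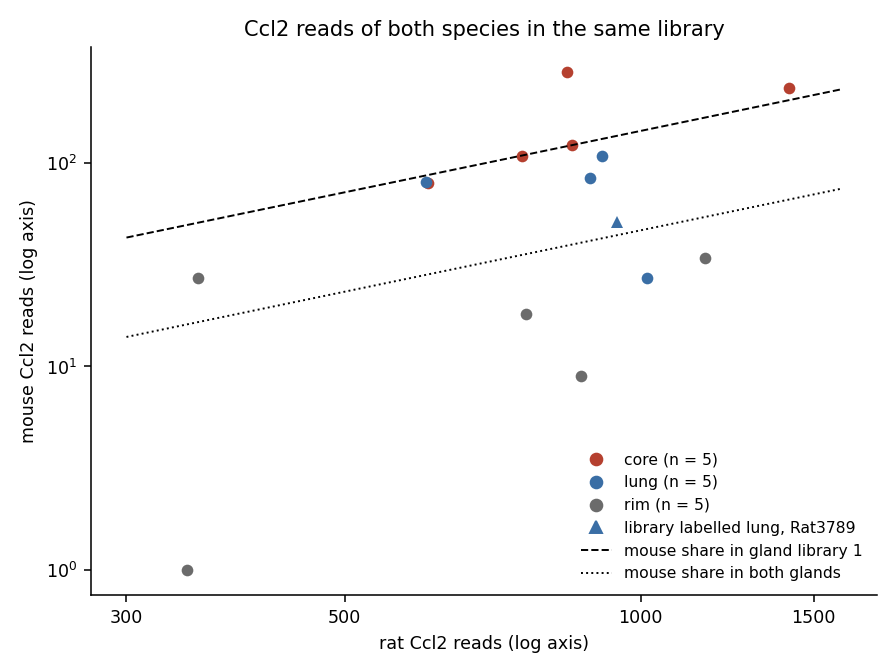
Mouse Ccl2 reads against rat Ccl2 reads of the same library (both axes log), for 5 cores, 5 lungs and 5 rims; the triangle is the library labelled lung of Rat3789, the dashed line is the mouse share of Ccl2 reads in gland library 1 (14.3 per 100 rat reads) and the dotted line that of both glands (4.65 per 100). Cores lie near or above the dashed line, and 4 of 5 rims lie below the dotted line.

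With mouse reads as deposited, the contrasts of Ccl2 between tissues differed between species. The rat log2 difference minus the mouse one was -2.43 ± 0.68 between core and rim (limma adjusted p = 0.0344) and -2.55 ± 0.72 between lung and rim (adjusted p = 0.0302; -2.73 and 0.0264 without Rat3789), where 33.3% (15.2% higher, 18.0% lower) and 21.0% (9.93% higher, 11.1% lower) of the genes of both tables differed. Without Rat3867, Rat3869, Rat3876 or Rat3877 the difference of core and rim had adjusted p of 0.0618 to 0.0868. Without Rat3869, Rat3875, Rat3876 or Rat3877 that of lung and rim had 0.0533 to 0.106. With mouse reads subtracted at the rate of gland library 1, neither was called: -1.84 between core and rim (adjusted p = 0.522) and -0.15 between lung and rim (adjusted p = 0.938). That rate left no mouse Ccl2 read in any lung or rim, so the -0.15 holds no mouse difference. Between core and rim the call was lost at that rate, with no mouse read left in the rims or in the cores of Rat3875 and Rat3876. The -1.84 therefore depends on the fraction of a read added to each count. Between lung and rim that rate cannot decide the call. Levels of the species are not compared, since their tables were scaled apart.

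Mouse Ccl7 was nearly silent. It had 12, 10, 2, 2 and 6 reads in the cores, 5, 5, 7, 1 and 0 in the lungs, and 0, 0, 0, 0 and 1 in the rims, with 1 in the pellet. Every core had more than every rim, although no core passed 0.603 CPM and the gene was below the filter. With no filter, limma gave 3.10 between core and rim (adjusted p = 0.0144), 2.07 between lung and rim (0.0695) and -1.03 between lung and core (0.283). The glands held 0 mouse Ccl7 reads beside 116 rat ones.

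Mouse Ccl5 had another order. Its values were 0.941, 1.46, 1.05, 0.223 and 0.449 CPM in the cores, 1.37, 3.80, 2.06, 3.23 and 3.91 CPM in the lungs, and 1.17, 1.22, 1.64, 1.22 and 1.92 CPM in the rims. All groups overlapped, the lung library of Rat3789 being the lowest lung. It was higher in the lung than in the core by 1.98 ± 0.48 (adjusted p = 0.00682, 4 of 4 rats with both; 2.22 and 0.00351 without Rat3789). Against the rim the lung differed by 0.92 ± 0.31 (adjusted p = 0.0542), and this was called without Rat3789 (1.16, adjusted p = 0.0116), with the rat as a block (1.10, 0.0348) and with edgeR (1.00, 0.0395). Over all alternatives this difference ran from 0.75 to 1.16, with adjusted p of 0.0116 to 0.197. Core and rim differed by -1.05 ± 0.44 (adjusted p = 0.126). The pellet held 163 reads of mouse Ccl5, or 5.54 RPM (4.72 to 6.45), above all 15 tumor and lung libraries (0.199 to 4.11 RPM).

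Per kilobase of exon, mouse Ccl2 was the highest of the 3 in the cores, at 6.77 ± 3.22 CPM per kb (SD, n = 5), against 0.858 ± 0.512 for Ccl5 and 0.404 ± 0.261 for Ccl7. In the lungs Ccl2 (2.86 ± 1.25) and Ccl5 (2.99 ± 1.16) did not differ beyond their spread. In the rims Ccl5 (1.495 ± 0.345) stood above Ccl2 (0.791 ± 0.565), with overlapping ranges. Exon lengths of the rat genes were not used here, so host genes were not ordered.

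The remaining members were seen in the tumor cells through the pellet alone. Mouse Ccl20, which draws dendritic cells and lymphocytes through Ccr6, had 36 pellet reads (1.22 RPM). Ccl4 had 13 (0.441 RPM). Ccl3, Ccl19, Ccl21a and Ccl21b had 0, which allows up to 0.102 RPM.

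**Figure D4:**
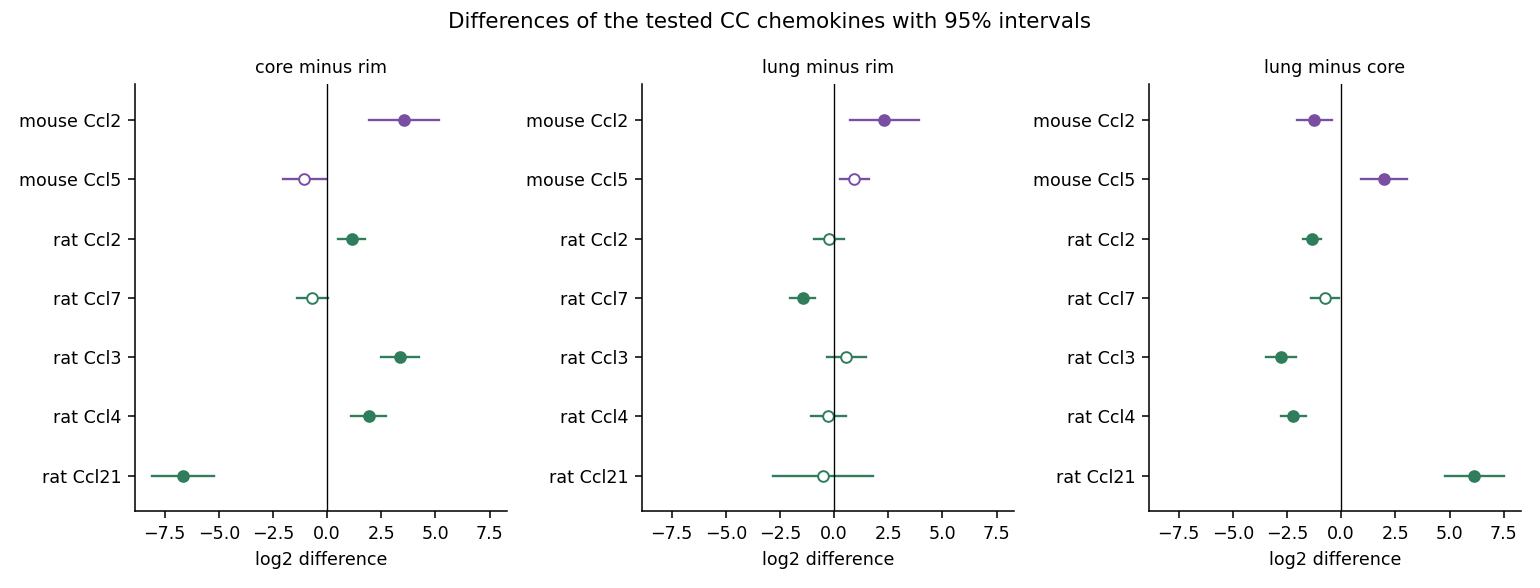
Log2 differences of the tested members with 95% intervals from limma, for core minus rim, lung minus rim and lung minus core (10 libraries each, the library labelled lung of Rat3789 included); filled points have adjusted p under 0.05, purple is mouse and green is rat. Rat Ccl21 and rat Ccl3 lie on opposite sides of 0 in the panels that involve the core.

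Other host CC ligands were split in the same comparison of core and rim. Of 18 listed, 8 had a rat row and were tested: 2 rose, 2 fell and 4 were not called, with a median log2 difference of 0.65. The share called among all tested rat genes was 37.6% (17.5% higher, 20.1% lower). Ccl9, a ligand of Ccr1 in the mouse, rose to 5.56 to 27.6 CPM in cores, against 2.34 to 8.47 CPM in rims (1.82 ± 0.38, adjusted p = 0.0067). Ccl12, a monocyte attractant related to Ccl2, stood at 129 to 316 CPM in cores and 62.9 to 139 CPM in rims (1.06 ± 0.30, adjusted p = 0.0241). The eosinophil attractant Ccl11 fell to 0.121 to 1.73 CPM in cores, against 1.11 to 70.4 CPM in rims (-4.56 ± 0.62, adjusted p = 0.0009). Ccl27, a skin chemokine, fell to 0.126 to 0.772 CPM in cores, against 1.46 to 7.55 CPM in rims (-3.45 ± 0.55, adjusted p = 0.0018).

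In the lung the same list moved otherwise. Against the rim, 1 of 8 rose and 3 fell, with a median of -0.67. With all lungs, 22.1% of all tested rat genes were called (10.5% higher, 11.6% lower), with a median of 0.02. Without Rat3789, 2 of the listed ligands rose and 3 fell, the added one being Ccl9 (1.496, adjusted p = 0.0104, against 1.15 and 0.0971 with it). Ccl6 rose to 526 to 736 CPM in lungs, against 182 to 337 CPM in rims (1.34 ± 0.16, adjusted p = 0.0003; 1.29 and 0.00017 without Rat3789). Ccl17, a ligand of Ccr4, fell to 8.93 to 18.9 CPM in lungs, against 17.5 to 60.5 CPM in rims (-1.21 ± 0.31, adjusted p = 0.0185; -1.05 and 0.0217 without Rat3789). Ccl27 also fell (-1.92 ± 0.52, adjusted p = 0.0237; 0.0262 without Rat3789), as did Ccl12 (-1.04 ± 0.34, adjusted p = 0.0499; 0.0451 without Rat3789). Against the core, 0 of 6 rose and 3 fell, with and without Rat3789: Ccl12 (-2.09, adjusted p = 0.0012), Ccl17 (-1.75, 0.0019) and Ccl22, the other Ccr4 ligand (-1.50, 0.0134). There, with all lungs, 32.8% of all tested rat genes were called (17.9% higher, 14.9% lower), with a median of 0.03.

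**Figure D5:**
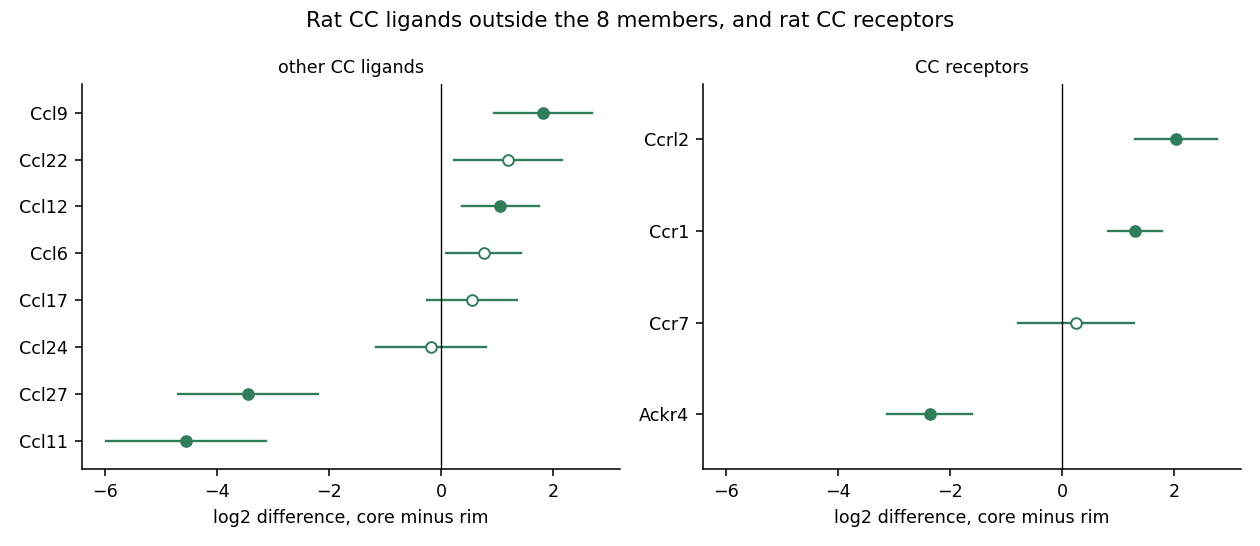
Log2 differences between core and rim, with 95% intervals from limma, of the tested rat CC ligands outside the 8 members (left) and of 4 of the 5 tested rat CC receptors (right), 5 cores and 5 rims; filled points have adjusted p under 0.05. Ccl9, Ccl12, Ccrl2 and Ccr1 were higher in the core, and Ccl11, Ccl27 and Ackr4 lower.

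Of the host receptors, 6 of 14 listed had a rat row. Between core and rim 2 of 5 tested rose, 1 fell and 2 were not called, with a median of 0.25, where 37.6% of all tested rat genes were called. Ccr1, the receptor of Ccl3 and Ccl5, was at 73.3 to 115 CPM in cores and 25.2 to 72.7 CPM in rims (1.30 ± 0.21, adjusted p = 0.0019). Ccrl2, which binds chemerin, was at 15.3 to 40.4 CPM in cores and 3.52 to 10.4 CPM in rims (2.03 ± 0.32, adjusted p = 0.0017). Ackr4, which scavenges Ccl19 and Ccl21, fell to 0.883 to 3.62 CPM in cores, against 6.33 to 15.7 CPM in rims (-2.36 ± 0.33, adjusted p = 0.0010).

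Ccr7, the receptor of Ccl19 and Ccl21, was not called between core and rim (0.25, adjusted p = 0.698). Between lung and core, Ccr7 fell (-1.43 ± 0.31, adjusted p = 0.0055; -1.25 and 0.00536 without Rat3789). Ccrl2 fell as well (-1.26, adjusted p = 0.0415; -0.90 and 0.0433 without Rat3789), and Ackr4 rose (1.60, adjusted p = 0.0478) but not without Rat3789 (1.25, 0.0828). Ccr1 was not called there with all lungs (-0.31, adjusted p = 0.299) and fell without Rat3789 (-0.49, 0.0455). Against the rim the one receptor called in the lung was Ccr1 (0.99, adjusted p = 0.0405), which was not called without Rat3789 (0.81, 0.0537), where Ccrl2 was (1.13, 0.0282).

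The receptor of Ccl2 and Ccl7, Ccr2, had a row in the mouse table only. Mouse Ccr2 was at 0.631 to 1.77 CPM in cores, 2.76 to 6.50 CPM in lungs and 1.18 to 4.62 CPM in rims. It was lower in the core than in the rim (-1.01 ± 0.28, adjusted p = 0.0368) and higher in the lung than in the core (2.01 ± 0.33, adjusted p = 0.0005; 1.91 and 0.00112 without Rat3789). The pellet held 0 reads of mouse Ccr2, which allows up to 0.102 RPM, and the glands held 4 and 1. The part of host reads in this value was not tested.

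Genes of the NF-kB pathway and its inducers, which act upstream of many chemokine genes, were called in the host at a share near that of all genes. Of 14 rat genes tested between core and rim, 4 rose, 1 fell and 9 were not called, with a median of 0.27. Of all tested rat genes, 37.6% were called (17.5% higher, 20.1% lower). The inhibitor gene Nfkbia rose (1.23 ± 0.37, adjusted p = 0.0293), as did Il1b, which encodes interleukin 1 beta (1.14 ± 0.33, 0.0252), and the apoptosis inhibitor gene Birc3 (0.91 ± 0.19, 0.0068). Of the 12 mouse genes tested, limma called 0 between core and rim, against 19.8% of all mouse genes tested.

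Lymphoid stromal and adhesion genes of the host mostly fell in the core, with 1 of 7 higher, 4 lower and 2 not called and a median of -2.38. The share called among all tested rat genes was 37.6% (17.5% higher, 20.1% lower). The genes named here are those of largest difference. The B cell attractant Cxcl13 fell to 0.364 to 9.38 CPM in cores, against 86.8 to 294 CPM in rims (-6.44 ± 0.81, adjusted p = 0.0006). The adhesion gene Vcam1 differed by -3.96 ± 0.44 (adjusted p = 0.0004) and Cxcl12 by -2.69 ± 0.40 (adjusted p = 0.0014).

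Markers of host cell types went different ways between core and rim, where 37.6% of all tested rat genes were called (17.5% higher, 20.1% lower). Macrophage markers summed to 14016 to 19985 CPM in cores and 11233 to 16144 CPM in rims; 7 of 14 rose and 4 fell, Cd163 by -3.71. Neutrophil markers summed to 240 to 1360 CPM in cores and 155 to 258 CPM in rims; 4 of 5 tested rose, with S100a9 at 2.38, and Mpo was at 0 in all cores. Dendritic markers showed 1 rise, Cd83 (1.34), and 2 falls among 8, a share near that of all genes. Fibroblast markers summed to 3465 to 11433 CPM in cores and 32904 to 61481 CPM in rims, and 8 of 8 fell. The part of these cells in the Ccl2, Ccl3, Ccl4 and Ccl21 results was not tested. Among mouse genes, 3 of 4 tested fibroblast markers rose in the core, Dcn by 5.47, where 10.1% of all tested mouse genes rose.

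The genes whose pattern was nearest to a member were found by the root mean square difference of centred log2 values over the 15 libraries. For rat Ccl21 the nearest was the lymphatic marker Reln (0.914, where Ccl21 itself varied by 3.38). For rat Ccl2 they were Bcl2a1 (0.311), Gas2l3 (0.331) and Cd83 (0.333), against its own 0.740. Rat Ccl4 was nearest to Gdf15 (0.389) and Atf3 (0.396) among named genes. Rat Ccl3 was nearest to Prlhr (0.514), Slco4a1 (0.556) and Gprc5d (0.614). Rat Ccl7 was nearest to Rims2 (0.411), Hoxb7 (0.413) and Kcnj8 (0.464), and the few reads of rat Ccl5 to Oas2 (0.728) and Mx1 (0.911). Mouse Ccl2 was nearest to Gm26595 (0.863) and Lurap1l (0.897), against its own 1.81. Mouse Ccl5 was nearest to Prr7 (0.402), Oasl1 (0.511) and Cdc20 (0.530).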

How the data were processed

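Tumor and lung values are 2 deposited tables, 1 per species, of linear signal that works out as (reads + 0.5) times a constant per library, scaled by the authors; all values gave whole reads within 0.01. Gland and pellet tables hold raw counts per gene, as deposited. Per the submitters' processing notes, Trim Galore, STAR, featureCounts and limma were used with GRCm38 and Rnor_6.0; the sources used here give no versions, no strand setting and no tool for assigning species. The numbering of the gland libraries (1 and 2) does not match that of the labels, so they were not tied to a rat.

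All columns were mapped to a sample or its group (0 left over). Genes with at least 1 CPM in at least 5 of 10 libraries were tested with limma 3.58.1 (lmFit, eBayes with trend, R 4.3.3) on log2 values, two-sided, with Benjamini-Hochberg adjustment over all genes tested in the species. Core and rim were fitted with the rat as a block, as the labels tie them to the same animal. Deviations of the same rat correlated at -0.18 to 0.24 for mouse and 0.03 to 0.34 for rat genes. Those of different rats correlated at -0.28 to 0.30 for mouse and -0.32 to 0.18 for rat genes. Lung comparisons had no block. The difference between species was fitted on the log2 rat minus log2 mouse value of symbols in both tables. Libraries of a group come from separate rats, with a chi-square per degree of freedom of at least 5.39 between replicates. Alternatives were edgeR 4.0.16, voom weights, other scalings, no filter, the block, subtraction of other-species reads at the rate of the same symbol in the single-species libraries (where these held at least 10 reads), and leaving out each rat. Tests were run on simulated data first. Python 3.11.15, numpy 2.4.6, pandas 2.3.3, scipy 1.17.1 and matplotlib 3.10.9 served for the rest.

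Named genes were all members, up to 3 called genes of largest difference in each pathway list, up to 2 in each cell type list, the nearest patterns of members averaging at least 1 CPM, and a few others given for their role after their values were seen (Ccr7, the other called ligands, Krt8, Adipoq, Sftpc, Mpo). Members and lists were chosen with earlier results of these data known. Intervals and the limit of 3 reads for a count of 0 cover counting error only. Promoter motifs were not analysed here. Some results are not reported here.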

Additional observations from a re-analysis of the deposited data

Results flagged for a closer look

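Of 30 groups of 5 libraries, 3 held a library far from the other 4 (about 5% would by chance), each through 1 read. Mouse Ccl7 in the rim of Rat3877 was at a log2 CPM of -3.74 (0.0748 CPM, against 0.0231 to 0.0283 CPM in the other rims). Rat Ccl5 in the core of Rat3876 was at -1.11 (0.463 CPM, against 0.121 to 0.159 CPM), and rat Ccl19 in the core of Rat3869 at -1.08 (0.473 CPM, against 0.121 to 0.159 CPM).

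With mouse reads as deposited, Ccl2 differed between host and tumor in its contrast of tissues. The rat minus mouse log2 difference was -2.43 between core and rim (limma adjusted p = 0.0344; 0.0134 to 0.522 over the alternatives) and -2.55 between lung and rim (adjusted p = 0.0302; 0.0264 to 0.938 over the alternatives). The highest of each range came with reads subtracted at the rate of gland library 1 (-1.84 and -0.15), where neither was called. That rate left no mouse Ccl2 read in any lung or rim, so the -0.15 holds no mouse difference. It also left none in the cores of Rat3875 and Rat3876, so the -1.84 is no exact fold.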

How the results depend on the processing

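Over 23 member results, 291 alternatives kept direction and call in 257 cases, lost the call in 21, gained it in 9 and turned the direction in 4. Directions turned between lung and rim only. For mouse Ccl2 this came at the rate of gland library 1 (-0.094), which left no read in any lung or rim. Without Rat3877 it came for rat Ccl2 (0.15) and Ccl4 (0.13), and without Rat3876 for rat Ccl21 (0.28). Leaving out 1 rat gave -0.41 to 0.15 for rat Ccl2, -0.53 to 0.13 for Ccl4 and -1.30 to 0.28 for Ccl21, none of which had been called with all rats. The cause was not tested.

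Leaving out 1 rat gave, between core and rim, 1171 to 2284 called mouse genes (2585 with all) and 3720 to 4589 rat genes (5092). Between lung and rim it gave 1239 to 2809 mouse (2603) and 1384 to 4077 rat genes (3065), and between lung and core 2852 to 4901 mouse (4736) and 2460 to 5009 rat genes (4452). The species difference had 2067 to 3122 genes for core and rim (3241) and 1043 to 2760 for lung and rim (2056). No other alternative moved a count by more than 1.5 times. With the rat as a block, the lung and rim counts were 2436 mouse and 3656 rat genes and the lung and core counts 4797 and 5017; without the block, core and rim gave 2630 and 5049. The block changed the call of mouse Ccl5 between lung and rim and of rat Ccl7 between lung and core, and of no other member.

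Total-count scaling raised the share of higher calls to 60.8% of mouse (from the authors' scaling, 49.4%) and 66.0% of rat genes (47.6%) between lung and rim, to 62.0% (47.2%) and 67.4% (54.5%) between lung and core, and to 60.0% (47.2%) for the species difference of lung and rim. It moved the median of all rat genes by 0.15 between lung and rim and 0.14 between lung and core. Low counts limit mouse Ccl7 and rat Ccl5 and Ccl19, and the cores, with the fewest rat reads, limit the host values most.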

Other observations

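Neighbouring chemokines of the host kept different proportions in each tissue; these ratios were chosen after their values were seen, and no test is given. Rat Ccl2 over rat Ccl7 was 3.46 to 7.47 in the cores, 2.41 to 3.40 in the lungs (2.46 in the library labelled lung of Rat3789) and 0.899 to 1.49 in the rims, with no overlap between tissues. Rat Ccl3 over rat Ccl4 was 0.886 to 1.70 in the cores, 0.677 to 1.29 in the lungs and 0.344 to 0.635 in the rims, where cores and lungs overlapped.

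Gland levels of other ligands are given without a test, from a separate table and chosen after they were seen. Rat Ccl24, an eosinophil attractant, had 777 and 2466 reads in the gland libraries (37.5 and 115 RPM), against 2.87 to 31.4 CPM in the rims. Rat Ccl12 had 6 and 3 gland reads, while it stood at 62.9 to 139 CPM in the rims and 129 to 316 CPM in the cores.

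Mouse Ccl25, which attracts cells through Ccr9, had 181 pellet reads over 7.445 kb of exon, where Ccl2 had 178 over 1.138 kb. Its gene overlaps Elavl1 on the opposite strand, so reads of the overlap cannot be told apart. Mouse Ccl25 was higher in the lung than in the rim by 0.40 (limma adjusted p = 0.0339; 0.43 and 0.0343 without Rat3789).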
